A study of Mus musculus with 28 samples.

Results

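The carboxylesterases described here are 10 genes of mouse liver, Ces1b, Ces1c, Ces1d, Ces1e, Ces1f, Ces1g, Ces2a, Ces2c, Ces2e and Ces3a, out of 49585 annotated genes counted. They were chosen from results of these data, because Ces1e and Ces2a were clearly raised with the transgene. The choice names no sex, but the log2 fold changes of the 2 genes were 1.43 and 1.01 in males against 0.22 and 0.00 in females, so the male comparison is taken here as the one used and its values describe the genes and test nothing about them. All 10 members had a row of their own and all 10 passed the minimum mean count. Liver RNA was sequenced from 28 C57BL/6JOlaHsd mice, aged 5 to 7 months and fasted for a few hours, with 7 WT and 7 SIRT6-tg animals of each sex, which gives 4 groups. SIRT6-tg mice carry an added SIRT6 gene throughout the body, all from 1 transgenic line bred into this background, and the WT mice are littermates without it. Each library came from 1 mouse and held 18758863 to 35393069 counted reads.

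Carboxylesterases are serine hydrolases of the endoplasmic reticulum that cut ester and amide bonds. In liver they activate or clear ester drugs and also split acylglycerols and cholesterol esters, which links them to the storage and secretion of lipid. Rodents carry many more copies than humans, laid out as tandem arrays, so that closely related enzymes with partly different substrates sit side by side.

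The members lie in a pair of arrays on chromosome 8 (mm10). Ces1b to Ces1g belong to an array that spans chr8:93020214-93535830, all on the minus strand, with 9 annotated carboxylesterases, of which 6 are members. Ces2a, Ces2c, Ces2e and Ces3a belong to a second array at chr8:104734003-105150109, on the plus strand, with 11 carboxylesterases, of which 4 are members. Coding sequences of the 6 Ces1 members, compared in 15 pairs, were 73.0% to 90.9% identical, with Ces1b and Ces1c the closest pair. The 3 Ces2 members were 83.0% to 84.0% identical to each other, and the 27 pairs across families were 61.1% to 64.4% identical.

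RefSeq promoter entries (GRCm38.p6) were found for 7 of the 10 members, all but Ces1d, Ces1f and Ces3a. The 250 bases before the start site are printed below for 4 of them. Ces1e and Ces2a are shown as the pair with the largest difference between male genotypes, Ces1c as the most abundant member, and Ces2c as the member with the largest sex difference. The windows are chr8:93229620-93229869 for Ces1e and chr8:93131284-93131533 for Ces1c, both on the minus strand, and chr8:104733753-104734002 for Ces2a and chr8:104846818-104847067 for Ces2c, both on the plus strand. Capitals mark matches, on either strand, to any of 8 short motifs. They were the TATA box written as TATAAA, the letters CCAAT, the half-site of nuclear receptors written as AGGTCA, the HNF1 half-site GTTAAT, the C/EBP letters TTGCNNAA, the forkhead letters TGTTTAC, the STAT letters TTCNNNGAA and the core of the antioxidant response element, TGACNNNGC.
Ces1e: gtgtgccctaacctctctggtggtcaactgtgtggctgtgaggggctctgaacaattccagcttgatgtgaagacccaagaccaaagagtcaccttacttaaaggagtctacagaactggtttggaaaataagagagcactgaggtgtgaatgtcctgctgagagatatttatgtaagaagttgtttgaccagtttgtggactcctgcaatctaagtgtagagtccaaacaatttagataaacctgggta
Ces2a: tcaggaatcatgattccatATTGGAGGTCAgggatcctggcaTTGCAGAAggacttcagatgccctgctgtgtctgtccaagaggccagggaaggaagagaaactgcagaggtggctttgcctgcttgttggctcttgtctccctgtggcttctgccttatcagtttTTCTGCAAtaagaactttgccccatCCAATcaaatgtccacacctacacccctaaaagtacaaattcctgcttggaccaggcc
Ces1c: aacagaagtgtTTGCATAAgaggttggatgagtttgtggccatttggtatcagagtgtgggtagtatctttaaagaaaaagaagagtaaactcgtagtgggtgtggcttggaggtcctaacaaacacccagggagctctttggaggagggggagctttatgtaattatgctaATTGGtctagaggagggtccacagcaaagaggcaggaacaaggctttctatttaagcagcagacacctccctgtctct
Ces2c: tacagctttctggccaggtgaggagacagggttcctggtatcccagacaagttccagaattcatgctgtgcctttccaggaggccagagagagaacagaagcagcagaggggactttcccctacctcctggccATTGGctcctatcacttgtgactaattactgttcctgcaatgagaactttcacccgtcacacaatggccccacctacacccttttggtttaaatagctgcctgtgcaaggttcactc

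The Ces1e window held none of the 8 motifs, which says only that these letters do not occur there. The Ces2a window held 5 matches, with CCAAT at 231 to 227 and 58 to 54 bases before the start, AGGTCA at 226 to 221, and the C/EBP letters at 208 to 201 and 83 to 76. Ces1c had CCAAT at 78 to 74 and the C/EBP letters at 239 to 232, and Ces2c had CCAAT at 117 to 113. Among 32851 promoter entries of all genes, 33.8% held CCAAT, 9.56% the C/EBP letters, 14% AGGTCA, 12.4% TATAAA, 6.43% GTTAAT, 3.17% TGTTTAC, 7.02% TTCNNNGAA and 10.2% TGACNNNGC in a window of the same length. In the first Ces2a match the CCAAT and AGGTCA letters lie directly next to each other.

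The transgene was read first. Sirt6, counted with the transgene's reads as far as they map to it, stood at 1.686 to 3.235 CPM (counts scaled to the effective library size) in WT males and 198.1 to 358.3 in SIRT6-tg males. Female SIRT6-tg livers held 16.35 to 50.24 CPM against 1.805 to 6.215 in female WT. Every transgenic library was above every WT library of its sex, and the log2 fold change was 6.68 ± 0.30 (SE) in males and 3.39 ± 0.26 in females (edgeR, adjusted p = 1.78e-15 and 3.33e-09). The male excess over the female effect was 3.29 ± 0.35 (adjusted p = 6.96e-06), so the comparisons in the sexes are comparisons at different Sirt6 levels.

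Expression levels were set side by side as CPM per kilobase of exon, the only scale on which different genes are compared here. The members together took 0.445% to 0.724% of all counts of a library. Ces1c, whose product is secreted into mouse plasma, stood highest in every group, at 835 ± 139 CPM per kilobase (SD, n = 7) in male WT, 1097 ± 68.4 in male SIRT6-tg, 1596 ± 251 in female WT and 1520 ± 187 in female SIRT6-tg. Over the 28 libraries it made up 48.7% ± 9.58 (SD) of the summed per-kilobase level of the 10 genes, with 34.9% as the lowest and 63.0% as the highest library.

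The next genes down differed between the sexes. In WT males Ces3a was second at 484.1 ± 75.5 CPM per kilobase, and Ces1d, the triacylglycerol hydrolase that supplies lipid for VLDL, came next at 202.8 ± 64.1. In WT females Ces1d came second at 345.5 ± 100.9 and then Ces3a at 208.7 ± 53.7, their ranges overlapping although Ces1d was above Ces3a in 7 of 7 libraries. Below them in WT males came Ces1f at 114.6 ± 23.6, Ces1g at 100.3 ± 19.8, Ces2a at 96.0 ± 12.4 and Ces2e at 91.9 ± 8.73, whose neighbours in this order overlapped. Per kilobase of the longest transcript these means were 195.5, 100.3, 115.5 and 91.9. The order of Ces1g and Ces2a, and the distance of Ces1f from them, therefore depend on the length used. Ces1e at 48.3 ± 10.6 and Ces1b at 36.02 ± 5.12 also overlapped, while Ces2c was lowest at 17.6 ± 2.92 and separate from Ces1b. Ces2c was also last in each of the other groups, at 4.46 ± 1.91 in female WT.

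**Figure D1:**
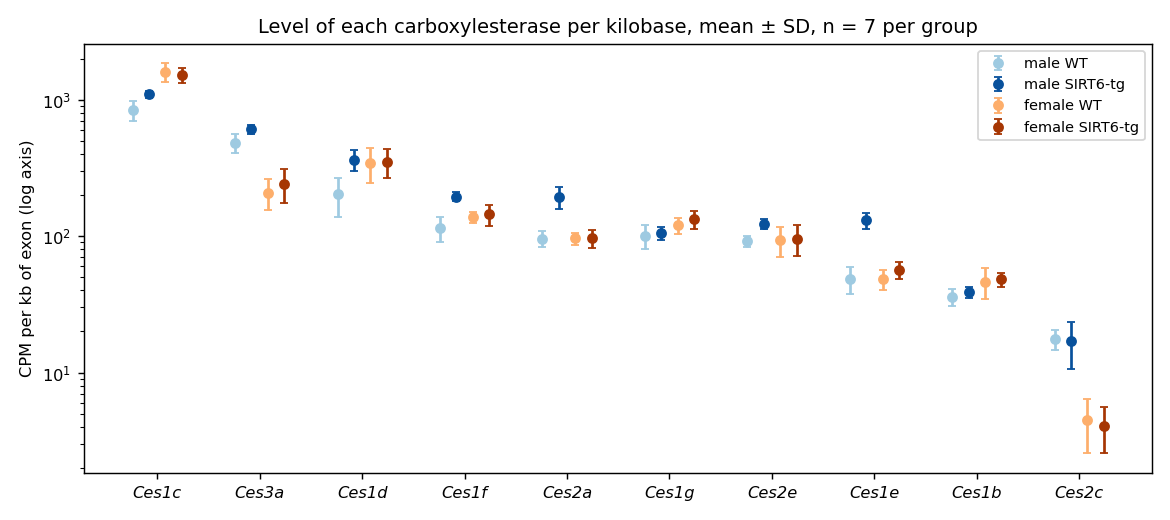
CPM per kilobase of exon (log axis) for each member in the 4 groups, as mean and SD of 7 libraries, ordered by the mean over groups. Ces1c is highest in every group, between 835 and 1596 on average, and Ces2c is lowest, between 4.07 and 17.6.

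In males, Ces1e showed the largest difference between the genotypes. Ces1e, also known as egasyn, retains beta-glucuronidase in the endoplasmic reticulum. Its lowest, median and highest values were 74.89, 105.7 and 146.0 CPM in WT males and 241.0, 285.0 and 358.5 CPM in SIRT6-tg males, so that all 7 transgenic libraries were above all 7 WT libraries. The fitted log2 fold change was 1.43 ± 0.13 (SE), or 2.70-fold. In per-kilobase order Ces1e moved from eighth of 10 in WT males to sixth in SIRT6-tg males.

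Ces2a, an acylglycerol hydrolase of the second array, followed. It ran from 196.5 over a median of 220.5 to 280.6 CPM in WT males and from 309.0 over 457.3 to 590.8 CPM in SIRT6-tg males, a log2 fold change of 1.01 ± 0.11, or 2.02-fold. The lowest transgenic library, replicate 7 at 309.0 CPM, was above the highest WT library but well below the other transgenic ones.

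Ces1d and Ces1f came next. Ces1f, an esterase with triglyceride hydrolase activity, was measured at 260.4, 364.2 and 499.9 CPM (lowest, median, highest) in WT and at 570.0, 646.3 and 702.0 CPM in SIRT6-tg males, a log2 fold change of 0.77 ± 0.12 with no overlap. Ces1d was at 316.9, 455.6 and 798.6 CPM in WT and at 674.1, 851.7 and 1099 CPM in SIRT6-tg males, a log2 fold change of 0.84 ± 0.18. The Ces1d groups overlapped through WT replicate 5 at 798.6 CPM, and 5 of 7 transgenic libraries were above it.

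The remaining members were closer together in males. Ces2e, another acylglycerol hydrolase, ran from 222.8 to 285.4 CPM in WT and from 294.9 to 385.4 CPM in SIRT6-tg males, without overlap but with a log2 fold change of only 0.43 ± 0.14. Ces1c and Ces3a were at 0.39 ± 0.11 and 0.34 ± 0.15 on the log2 scale, with overlapping groups. Ces1b, Ces1g and Ces2c were at 0.10 ± 0.13, 0.08 ± 0.12 and -0.05 ± 0.24, each within 1 standard error of 0. In all, 6 of the 10 members passed an adjusted p of 0.05 in males and 4 of 10 had transgenic libraries wholly above WT. Of all 21583 genes tested, 20.7% passed in either direction, 9.68% as higher, and 2.60% had transgenic libraries wholly above WT. Because this comparison chose the members, nothing is read from their counts.

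**Figure D2:**
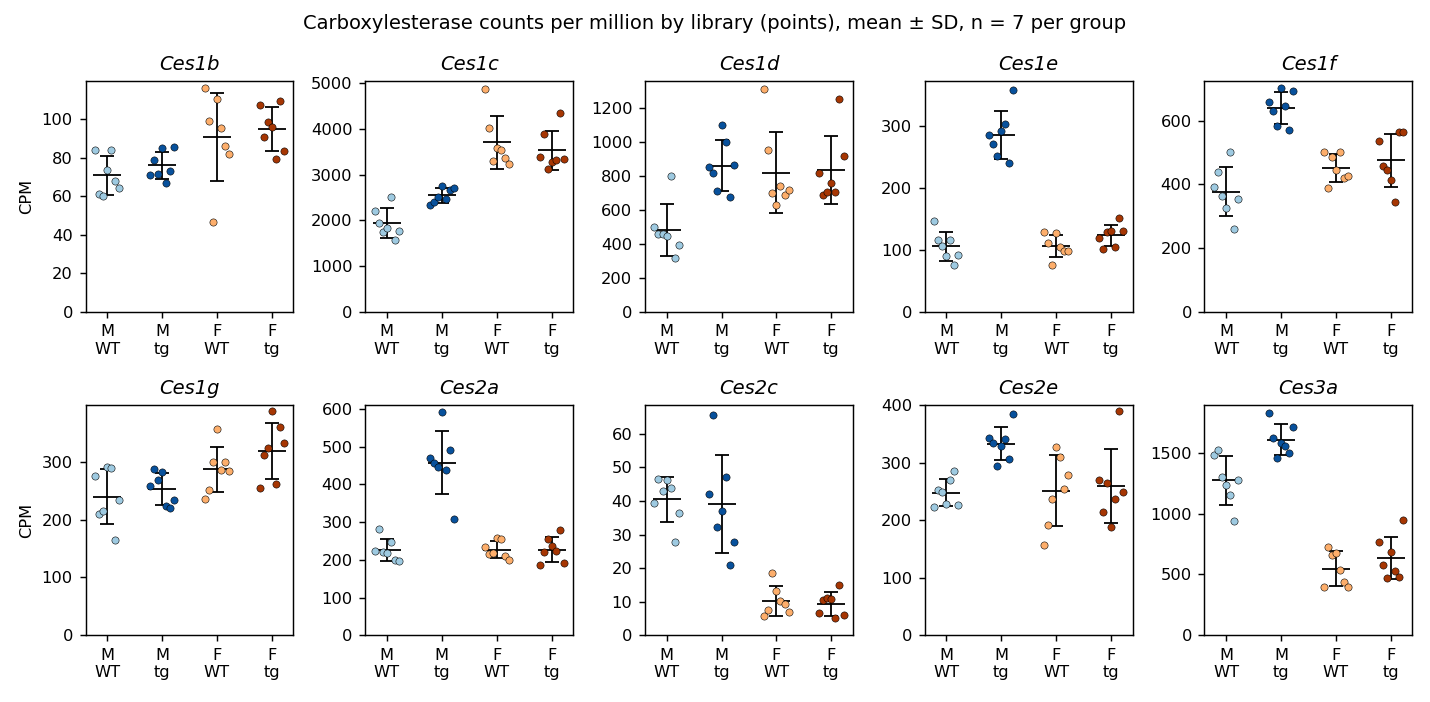
CPM of each member in each of the 28 livers (points) with mean and SD for male (M) and female (F) WT and SIRT6-tg (tg) groups, each panel with its own axis from 0. The male SIRT6-tg points of Ces1e, Ces1f, Ces2a and Ces2e lie above all male WT points, whereas the female groups overlap for all 10 genes.

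These male values depend on how the libraries were scaled to each other. The TMM factors, which set the library size used for CPM, were 1.062 to 1.174 in WT males and 0.8209 to 0.9928 in SIRT6-tg males. When only the library size was used, all genes together had a median of -0.22 on the log2 scale in males, against 0.06 with TMM, and a median of 0.19 for WT males over WT females, against -0.0033 with TMM. The share of higher calls among all calls in males went from 2090 of 4467 with TMM to 210 of 4294 with library size alone, and in the WT sex comparison from 1436 of 2669 to 3657 of 4212. Under library size alone Ces1e was at 1.15 and Ces2a at 0.74, and under scaling to 15 hepatocyte secreted proteins, whose own median in males was 0.39 with TMM, they were at 1.06 and 0.67. Ces1d and Ces1f kept positive values under both, at 0.56 and 0.49 with library size alone and 0.47 and 0.40 with the secreted proteins. Ces1c, Ces2e and Ces3a came to 0.03, 0.07 and -0.03 when scaled to the secreted proteins. Ces1b and Ces1g changed sign, to -0.27 and -0.28.

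**Figure D3:**
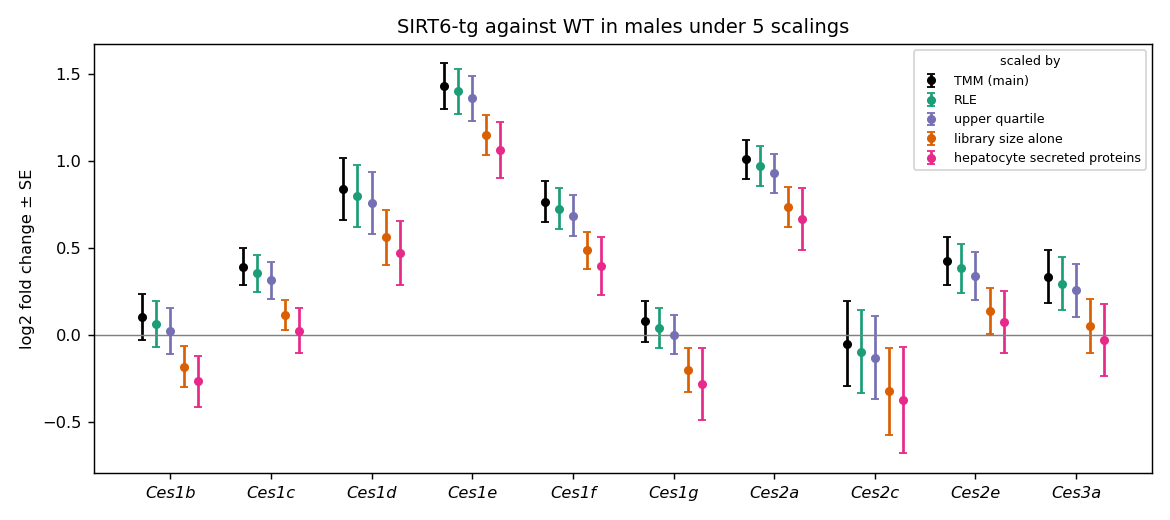
Log2 fold change of SIRT6-tg against WT males with its SE for each member under 5 ways of scaling the libraries. Ces1e stays between 1.06 and 1.43 and Ces2a between 0.67 and 1.01, while Ces1b, Ces1g and Ces3a cross 0.

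Other cell types moved with the male genotypes too. In males, 10 of 10 T-cell markers, 10 of 10 macrophage markers, 5 of 6 B-cell markers and 7 of 8 stellate cell markers fell in SIRT6-tg (adjusted p under the threshold), and no marker of any of these lists was at 0 throughout. Of all genes 20.7% passed in males in either direction, 9.68% as higher and the rest of the 20.7% as lower. The summed T-cell markers were at 19.08 to 54.15 CPM in WT and 5.92 to 8.955 CPM in SIRT6-tg males, the macrophage markers at 436.8 to 1419 and 369.5 to 627.6, the B-cell markers at 11.7 to 18.05 and 5.961 to 10.62, and the stellate markers at 399.0 to 627.5 and 280.6 to 374.4. The 15 hepatocyte secreted proteins, of which 7 rose, summed to 122900 to 156800 CPM in WT and 146200 to 210200 in SIRT6-tg males. In females none of these lists had a member passing the test, and their summed levels overlapped, T-cell markers at 7.138 to 21.62 in WT and 7.496 to 15.62 in SIRT6-tg. Of the remaining lists, 1 of 8 endothelial, 0 of 6 cholangiocyte, 1 of 3 tested intestinal, 1 of 6 adipocyte, 2 of 5 tested pancreas and 1 of 5 erythroid markers passed in males, with the intestinal marker Alpi at 0 in every library. Of these, Fabp2, Cela1 and Alas2 rose in SIRT6-tg males, whereas Pecam1, Plin1 and Ctrb1 fell. Plin1 and Ctrb1 were near the floor, at 0.295 ± 0.73 and 0.198 ± 0.508 CPM (SD) in male WT. The summed intestinal markers did not overlap between male WT (45.56 to 66.67 CPM) and male SIRT6-tg (68.57 to 112.5 CPM), while the summed levels of the other 5 lists did. Most of this sum was Fabp2 alone, at 43.41 ± 7.98 CPM (SD) in WT and 69.87 ± 17.2 in SIRT6-tg males. Lgals4 was at 12.29 and 13.85 CPM (edgeR, adjusted p = 0.529) and Vil1 at 0.151 and 0.159 CPM (adjusted p = 0.93). Of all single genes 2.60% had male transgenic libraries wholly above WT. In bulk liver, fewer cells of a type and less RNA per cell cannot be told apart, and the part of these lists in the male esterase values was not tested.

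The female comparison was tested, since the male one is taken as the comparison used for the choice. None of the 10 members passed an adjusted p of 0.05 in SIRT6-tg against WT females (edgeR quasi-likelihood test), none had an unadjusted p under 0.05, and DESeq2 called none. Of all genes 0.0278% passed, which is 6 of 21583, and 5.62% had an unadjusted p under 0.05. Female groups of all 10 members overlapped, as they did for all but 0.0834% of genes. Ces1e was at 75.96, 104.9 and 128.2 CPM (lowest, median, highest) in female WT and 102.0, 129.2 and 151.0 in female SIRT6-tg, where 4 of 7 libraries were above every WT library. Its log2 fold change was 0.22 ± 0.13, with a 95% interval of -0.03 to 0.48 and an adjusted p of 0.975. Ces2a was at 199.0, 219.2 and 259.0 CPM in female WT and 185.6, 222.8 and 278.7 in female SIRT6-tg, a log2 fold change of 0.00 ± 0.11 (interval -0.22 to 0.22, adjusted p = 1.0).

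The other 8 members had female log2 fold changes of -0.14 to 0.21. The widest interval was that of Ces2c, from -0.63 to 0.36, and Ces3a had -0.08 to 0.51. Ces1f and Ces1d were at 0.07 ± 0.12 (interval -0.16 to 0.30) and 0.03 ± 0.18 (interval -0.32 to 0.37). With TMM no upper bound among the 10 members was above 0.51. The intervals leave room for female differences smaller than these bounds, which were not detectable with 7 mice a group. Scaled to the secreted proteins, Ces1e and Ces3a were at 0.37 and 0.36 in females, and 0 members passed. The intervals given here are those with TMM only. The male minus female difference in the SIRT6-tg effect was 1.21 ± 0.18 for Ces1e, 1.01 ± 0.16 for Ces2a, 0.81 ± 0.25 for Ces1d, 0.70 ± 0.17 for Ces1f, 0.46 ± 0.15 for Ces1c and 0.38 ± 0.20 for Ces2e. These differences hold the male values and are a description. Of all genes 5.05% passed for this difference and 3 of the 10 members did, from which nothing is read.

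**Figure D4:**
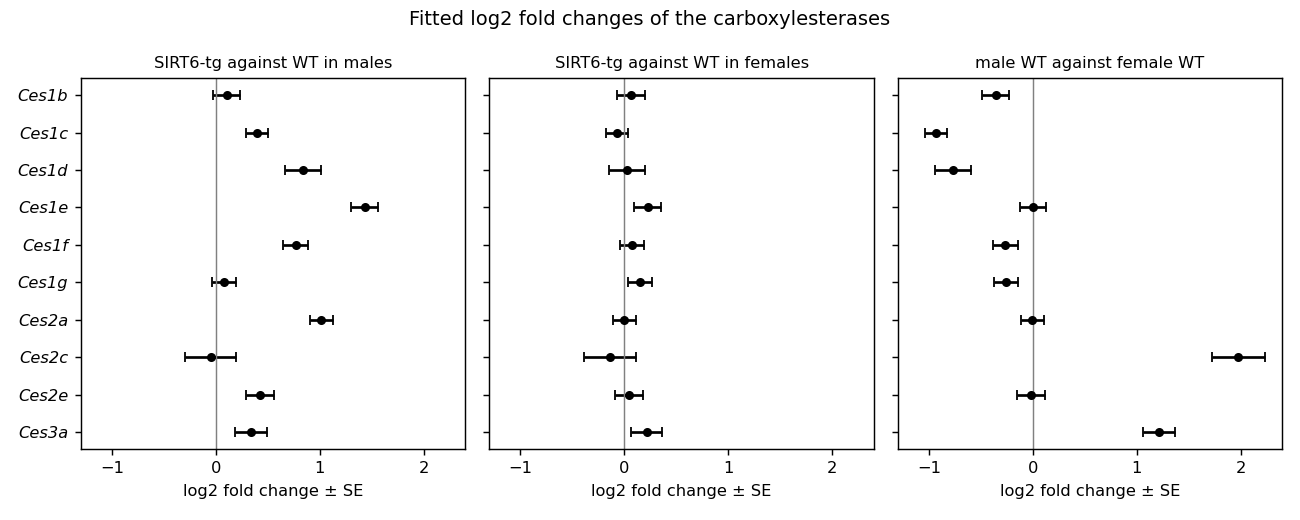
Log2 fold change with SE of each member for SIRT6-tg against WT in males, SIRT6-tg against WT in females and male WT against female WT. In females all 10 values lie between -0.14 and 0.22, whereas in males Ces1e reaches 1.43 and in the sex comparison Ces2c reaches 1.98.

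WT males differed from WT females in 4 of the 10 members, 2 in each direction, against 12.4% of all genes (6.65% higher in males and 5.71% lower). The male WT libraries also took part in the comparison that chose the members. Ces2c, an acylglycerol hydrolase, was at 27.73, 42.98 and 46.7 CPM (lowest, median, highest) in male WT and at 5.847, 9.346 and 18.52 CPM in female WT, a log2 fold change of 1.98 ± 0.26, or 3.94-fold (edgeR, adjusted p = 2.96e-06). Ces3a was at 937.0, 1278 and 1521 CPM in males and 397.0, 537.3 and 728.7 CPM in females, 2.32-fold (log2 1.21 ± 0.15, adjusted p = 1.54e-06). All 7 male libraries were above all 7 female ones for both genes, as for 1.33% of all genes.

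Ces1c and Ces1d went the other way. Ces1c was at 1575, 1829 and 2519 CPM in male WT and at 3238, 3530 and 4885 CPM in female WT, so that every male library was below every female one, as for 1.64% of all genes (log2 -0.93 ± 0.11, adjusted p = 2.07e-07). Ces1d was at 626.9, 717.2 and 1308 CPM in female WT, against the male values given above, with 6 of 7 males below all females (log2 -0.77 ± 0.18, adjusted p = 0.00326). Directions of these 4 genes were the same under all scalings, but Ces1d no longer passed when scaled to the secreted proteins (adjusted p = 0.0771). Ces1e and Ces2a differed by 0.00 ± 0.13 and -0.01 ± 0.11 between WT males and females, values whose sign depends on the scaling. Ces1b was at -0.36 ± 0.13, with an adjusted p of 0.0733, and passed without female WT replicate 3 (-0.47, adjusted p = 0.00246), the library with the lowest Ces1b value of 46.35 CPM, and without male WT replicate 5 (-0.41, adjusted p = 0.047). Ces1f, at -0.27 ± 0.12, passed only without male WT replicate 5 (adjusted p = 0.0406).

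Across individual livers, some of the Ces1 members varied together. Deviations of log2 CPM from the group means were correlated for the 45 pairs of members over 28 libraries, and 7 pairs had a Benjamini-Hochberg adjusted permutation p under 0.05, of which 6 lie within the Ces1 array (15 pairs), 0 within the Ces2 to Ces4 array (6 pairs) and 1 between them (24 pairs). Of the 6 passing pairs within the Ces1 array none involved Ces1g, whose r with the other Ces1 members was 0.16 to 0.34. The median r was 0.54 for pairs within the Ces1 array, 0.13 within the second array and 0.14 between the arrays. Ces1c and Ces1d had the highest value (r = 0.79, adjusted permutation p = 0.0036; rho = 0.52, adjusted permutation p = 0.0467), and r = 0.63 without the 2 livers farthest from the median. Within groups their r was 0.93 in male WT, 0.16 in male SIRT6-tg, 0.93 in female WT and 0.65 in female SIRT6-tg.

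Ces1d and Ces1f followed (r = 0.67, adjusted permutation p = 0.00585; rho = 0.63), with r within groups of 0.20 to 0.87. Ces1e correlated with Ces1b (r = 0.64, adjusted permutation p = 0.00585), Ces1d (r = 0.60, 0.0228), Ces1c (r = 0.58, 0.0382) and Ces1f (r = 0.56, 0.0382). Within groups its r was 0.415 to 0.964 with Ces1b, 0.458 to 0.78 with Ces1d and 0.224 to 0.766 with Ces1c. With Ces1f it was -0.02 in female WT and up to 0.84 in male SIRT6-tg. The pair that bridged the arrays was Ces1g and Ces2c (r = 0.60, adjusted permutation p = 0.00585), with r of 0.58 to 0.72 in each of the 4 groups. Ces1e and Ces2a had r = 0.18 (adjusted permutation p = 0.631), with opposite signs within groups, at 0.57 in male WT, -0.62 in male SIRT6-tg, 0.50 in female WT and 0.48 in female SIRT6-tg. The number of pairs passing was 2 with library size alone, so the count rests on the scaling. It was 39 when levels were taken relative to the secreted proteins. There the same library mean is subtracted from every member, which gives all pairs a shared term, so nothing is read from that count.

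**Figure D5:**
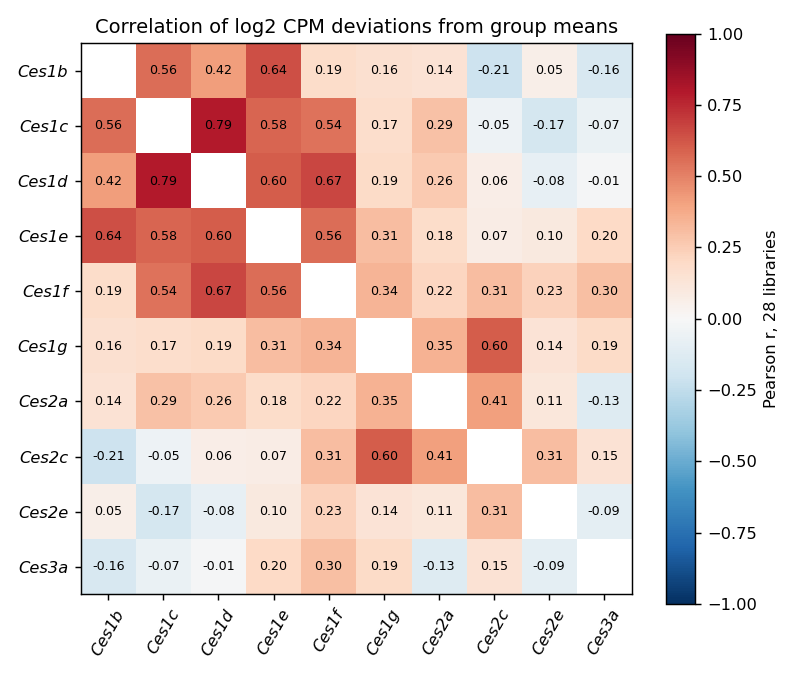
Pearson r of log2 CPM deviations from the group means for each pair of members over 28 libraries, blue for negative and red for positive values. The block of higher values covers Ces1c to Ces1f, with 0.79 for Ces1c and Ces1d. Outside it lie Ces1b with Ces1e at 0.64, Ces1b with Ces1c at 0.56 and Ces1g with Ces2c at 0.60.

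Genes whose liver-to-liver deviations were most like those of Ces1e, among 14039 genes with a mean normalized count of 10 or more, were Bphl (r = 0.83), Ndfip1 (0.83), Scap (0.79), Adi1 (0.78) and Pbld2 (0.76). For Ces2a they were Cyp3a59 (0.67), Gm14584 (0.65), Galnt11 (0.64), Ddx31 (0.64) and Rab35 (0.62). All points share library depth and scaling. Bphl had r of 0.77 to 0.95 with Ces1e in each group, whereas Rab35 had r of -0.85 with Ces2a in male WT and 0.87 in male SIRT6-tg.

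Within the transgenic mice the Sirt6 level was set against each member in each sex. Of these 20 relations 0 passed an adjusted exact permutation p of 0.05, and 2 had an unadjusted one below it by Pearson's r (1 by Spearman's rho, Ces1c in females). By r these were Ces1f in females (r = 0.78, n = 7, exact permutation p = 0.0401, adjusted 0.294; rho = 0.75, exact permutation p = 0.0663, adjusted 0.442) and Ces2e in females (r = 0.77, n = 7, exact permutation p = 0.0321, adjusted 0.294; rho = 0.75, exact permutation p = 0.0663, adjusted 0.442). Without the 2 females farthest from the median Sirt6 level, r was 0.74 for Ces1f and 0.15 for Ces2e, so the second relation rests on those animals. In males Ces1e and Ces2a had r of 0.23 and 0.45 with Sirt6 (n = 7, exact permutation p = 0.624 and 0.303).

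Of the 10 other carboxylesterases annotated in the arrays, 7 had enough counts to be tested. Ces3b, the neighbour of Ces3a, was the one well expressed gene among them that passed in males. It was at 193.0, 214.2 and 283.8 CPM (lowest, median, highest) in male WT and at 316.5, 411.8 and 519.2 CPM in male SIRT6-tg (log2 0.89 ± 0.16, edgeR, adjusted p = 0.000102), with no overlap. In females Ces3b was at 81.3, 122.0 and 205.1 CPM in WT and 157.3, 200.7 and 219.2 CPM in SIRT6-tg (log2 0.52 ± 0.16, unadjusted p = 0.00248, adjusted p = 0.404), and it was higher in WT males than in WT females (log2 0.71 ± 0.16, adjusted p = 0.00237). Scaled to the secreted proteins, the male difference was 0.55 with an adjusted p of 0.0969.

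Ces2g was level in all groups, at 46.09 ± 6.02 CPM (SD, n = 7) in male WT and 48.60 ± 4.48 in male SIRT6-tg. Ces4a was near 1 CPM, 0.749 ± 0.554 in male WT and 1.88 ± 1.28 in male SIRT6-tg (log2 1.33 ± 0.44, adjusted p = 0.0287), a call that was lost under 9 alternatives including the removal of any of 6 single male libraries. Ces2b and Ces2h were below 1 CPM on average in each group and were higher in WT males than in WT females (log2 2.83 ± 0.64, adjusted p = 0.00279, and 1.56 ± 0.40, adjusted p = 0.00856). Ces4a was also higher in WT males than in WT females (1.63 ± 0.52, adjusted p = 0.037), a call lost under 8 alternatives. Ces1a and Ces2d-ps averaged at most 0.1804 and 0.1161 CPM in any group and passed no test. Ces1h, Ces2f and Ces5a had at most 2 counts in a library. The share of all genes passing in males was 20.7%, against 2 of these 7, a count of 1 with library size alone and of 0 when scaled to the secreted proteins.

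How far reads can be assigned within the arrays was checked on the annotated transcripts. Only uniquely mapped reads had been counted, so stretches identical between genes lose their reads. Of the distinct 50-base stretches of Ces3a 25.6% also occur in Ces3b, and of those of Ces2c 32.7% also occur in the pseudogene Ces2d-ps. Ces2a shares 16.3% with Gm7208, a gene at 0.046 CPM on average, and Ces1b and Ces1c share 9.92% and 8.18% with each other. Ces1d, Ces1e, Ces1f, Ces1g and Ces2e shared 0.903% to 3.30% with any other gene. Levels of Ces2c, Ces2a and Ces3a between genes are therefore the least certain. The library kit does not mark strand, so reads of Ces3a and of Gm45724, annotated on the opposite strand within it and counted at 1.64 CPM on average, cannot be told apart where they overlap. The same holds for Ces1d and Gm45909, counted at 2.69 CPM on average.

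The nearest genes outside the arrays were also read. Of the 5 nearest tested genes on either side of the Ces1 array, 4 of 10 passed in males, among them Lpcat2 (log2 -1.59, adjusted p = 1.95e-06) and Mmp2 (-1.44, adjusted p = 5.36e-07) lower in SIRT6-tg, and Nudt21 (0.34, adjusted p = 0.0309) higher. Around the second array 2 of 10 passed, Rrad (-1.40, adjusted p = 0.0121) and B3gnt9 (-0.78, adjusted p = 0.00257), both lower. Of all genes 20.7% passed in males, and the count around the Ces1 array was 2 with upper-quartile factors, with library size alone or scaled to the secreted proteins.

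Other hydrolases and lipid genes were read from lists. Of 14 other serine esterases of the liver, 7 rose in SIRT6-tg males and 0 fell, with a median log2 fold change of 0.24 beside 0.06 for all genes, of which 9.68% were called higher. The count passing was 1 without male WT replicate 7, 3 without male WT replicate 4 and 1 when scaled to the secreted proteins. Examples were Aadac, a deacetylase of lipid and drug esters (451.7 ± 51.03 CPM in WT and 634.2 ± 61.2 in SIRT6-tg males, log2 0.49 ± 0.09, adjusted p = 0.000207), Lypla1, an acyl-protein thioesterase (0.33 ± 0.09, adjusted p = 0.0115), and Afmid, a formamidase of tryptophan breakdown (0.55 ± 0.16, adjusted p = 0.0138). Of 14 lipases and cofactors, 4 rose and 1 fell, against 20.7% of all genes passing, and 8 passed without male WT replicate 6 and 1 when scaled to the secreted proteins. Hepatic lipase Lipc (0.55 ± 0.09, adjusted p = 3.14e-05) and monoglyceride lipase Mgll (0.76 ± 0.15, adjusted p = 0.000543) rose, while lipoprotein lipase Lpl fell from 69.8 to 27.6 CPM on average (-1.34 ± 0.26, adjusted p = 0.000345).

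Of 14 genes of triglyceride synthesis and VLDL assembly, 9 rose and 0 fell in males, against 9.68% of all genes called higher, a count of 0 when scaled to the secreted proteins. Among the 9 were the acyltransferase Agpat2 (0.69 ± 0.12, adjusted p = 4.78e-05), the cholesterol ester-forming Soat2 (0.37 ± 0.07, adjusted p = 0.000236) and Cideb, which helps to load VLDL with lipid (0.36 ± 0.08, adjusted p = 0.000957). Of 13 nuclear receptors and factors tied to esterase genes, 2 rose, the hepatocyte factors Cebpa (0.47 ± 0.09, adjusted p = 0.000134) and Foxa2 (0.64 ± 0.18, adjusted p = 0.0092), and the bile acid receptor Nr1h4 was at 0.28 ± 0.11 (adjusted p = 0.0544). Of 12 other drug-metabolizing targets of PXR, CAR and NRF2, 2 rose, Cyp2c29 (0.65 ± 0.16, adjusted p = 0.00304) and Cyp2b10 (1.36 ± 0.38, adjusted p = 0.0105), with Cyp3a11 at 0.26 ± 0.15 (adjusted p = 0.251). The share of all genes called higher, 9.68%, stands beside both counts of 2, which were 0 when scaled to the secreted proteins, and 4 receptors and factors passed without male WT replicate 1. With library size alone 2 of 14 esterases and 1 of 14 triglyceride genes passed. In females 0 genes of these 5 lists passed with edgeR and 1 with DESeq2. Female log2 fold changes were 0.41 ± 0.09 for Lipc (edgeR, adjusted p = 0.0966), 0.52 ± 0.15 for Mgll and 0.39 ± 0.16 for Afmid. They were 0.01 ± 0.09 for Aadac and 0.00 ± 0.09 for Cebpa. For Lipc, Mgll and Afmid the sex difference of the effect did not pass (edgeR, adjusted p = 0.62, 0.612 and 0.783).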

How the data were processed

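Liver RNA of 28 mice was sequenced as single-end libraries prepared with a kit that does not mark strand. Per the labels and the study's methods, the authors aligned reads to mm10 with STAR 2.5.0a, kept uniquely mapped reads and deposited raw HTSeq counts for 49585 genes; the strand setting of the counting is not given in the sources used here. Symbols, exon lengths and array positions came from a Gencode annotation of the same build. Library totals ran from 18758863 to 35393069 counts, and the counting precision of the least expressed genes is limited by this depth.

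All 28 libraries were fitted together with edgeR 4.0.16 (R 4.3.3) by its robust quasi-likelihood test, TMM factors, 4 group means and no further covariate, over 21583 genes with a mean normalized count of at least 0.5. An adjusted p (Benjamini-Hochberg over these genes) below 0.05 was a call. Standard errors were the log2 fold change over the square root of the F statistic, and 95% intervals took a normal spread. CPM used the TMM effective library size, and CPM per kilobase the length of the exon union. Correlations between members used deviations of log2 CPM (prior count 2) from group means and 100000 permutations. Tests were two-sided. DESeq2 1.42.0, other scalings, other filters, a replicate block and the removal of each library were alternatives. The fit was tested on simulated data with changes in female SIRT6-tg alone, as many up as down. That test cannot speak to the scaling of the male libraries.

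Groups came from the labels. Separate mice are stated, and no pair of libraries agreed within sampling noise. The members, the gene lists and the rule for named genes were chosen with earlier results of these data known. Named genes were the members, the other carboxylesterases, Sirt6, at most 3 genes of each further list (lowest adjusted p in a genotype comparison), neighbours of the arrays with an adjusted p below 0.05 and the 5 genes most alike to Ces1e and to Ces2a. Gm7208, Gm45724, Gm45909 and Alpi were named after their values were seen. The values of 1 neighbouring gene are not reported here.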

Additional observations from a re-analysis of the deposited data

Results flagged for a closer look

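Among 52 groups of 7 libraries, 5 held a library whose gap to the nearest other one was a larger part of the range than Dixon's 95% limit, where chance gives about 1 in 20 groups. Ces1d was highest in male WT replicate 5 at 798.6 CPM and in female SIRT6-tg replicate 6 at 1251 CPM, and the latter was also highest for Ces2e at 389.3 CPM. Sirt6 was lowest in male WT replicate 6 at 1.686 CPM and highest in female WT replicate 1 at 6.215 CPM.

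The SIRT6-tg effect differed between the sexes, by the interaction term in edgeR, for Sirt6 itself (male minus female 3.29, adjusted p = 6.96e-06), for Aadac (0.482, adjusted p = 0.0244) and for Cebpa (0.471, adjusted p = 0.018). It was lower in males for the neighbours Lpcat2 (-1.24, adjusted p = 0.0114) and Mmp2 (-1.33, adjusted p = 0.00167), and among the cell type markers for 7 of 10 T-cell, 3 of 8 stellate, 2 of 10 macrophage and 1 of 6 B-cell genes. Among the markers it was higher in males for the secreted protein gene Fgb (0.661, adjusted p = 0.0106) and the erythroid Alas2 (0.646, adjusted p = 0.0251). Of all genes 5.05% passed for this difference. The values above are those with TMM, where 260 of 1089 calls were higher in males. Higher calls were 26 of 1863 with library size alone and 11 of 1961 when scaled to the secreted proteins. The median of this difference over all genes was 0.03, -0.25 and -0.43 in these 3 settings, so the higher calls depend on the scaling.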

How the results depend on the processing

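Counts of calls moved with the scaling and with single libraries. Scaled to the hepatocyte secreted proteins, 2 members passed in males instead of 6, and 0 instead of 3 for the sex difference of the effect (5 with DESeq2, 3 to 5 without single libraries). Under that scaling the other carboxylesterases went from 2 to 0 (1 with library size alone, 1 with each comparison fitted alone, 1 to 2 without single libraries), serine esterases from 7 to 1 (2 with library size alone, 2 with upper-quartile factors, 1 to 7 without single libraries), lipases from 5 to 1 (5 to 8 without single libraries), triglyceride genes from 9 to 0 (1 with library size alone), nuclear receptors from 2 to 0 (1 with library size alone, 2 to 4 without single libraries), PXR, CAR and NRF2 targets from 2 to 0, and neighbours of the Ces1 array from 4 to 2 (also 2 with upper-quartile factors and 2 with library size alone). Lipases in females went from 0 to 1 with DESeq2 (0 to 1 without single libraries). Correlated pairs went from 7 to 2 with library size alone and to 39 relative to the secreted proteins, a setting that gives all pairs a shared term. Higher calls among all male calls were 2090 of 4467 with TMM, 1395 of 3906 with RLE, 942 of 3591 with upper-quartile factors and 99 of 3617 with the secreted proteins. The cause was not tested.

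Values near 0 changed sign. In WT males against WT females Ces1e was at 0.0144 with RLE, 0.188 with library size alone, 0.268 with the secreted proteins, 0.00164 with filterByExpr, 0.000329 with any count, 0.0146 with DESeq2 and 0.000778 fitted alone. There Ces2a was at 0.0143 (RLE and DESeq2), 0.186 (library size alone), 0.241 (secreted proteins) and 0.00132 (filterByExpr), Ces2e at 0.0055 (RLE), 0.166 (library size alone), 0.17 (secreted proteins) and 0.00549 (DESeq2), Sirt6 at 0.136 (library size alone), 0.247 (secreted proteins) and 0.0017 (replicate block), and Ces2g at 0.0104 (library size alone) and 0.0379 (secreted proteins). In females Ces1c was at 0.064 with the secreted proteins, and Ces2a at -0.0129 (upper-quartile factors), -0.00945 (filterByExpr), -0.000107 (any count) and -0.0012 (replicate block). In males Ces2g was at -0.00361 (upper-quartile factors), -0.201 (library size alone) and -0.273 (secreted proteins), and Ces2h at -0.051 (secreted proteins). Without single libraries the female values ran from -0.0492 to 0.127 for Ces1b, -0.13 to 0.00169 for Ces1c, -0.101 to 0.171 for Ces1d, -0.057 to 0.0424 for Ces2a, -0.288 to 0.0744 for Ces2c, -0.0871 to 0.119 for Ces2e and -0.013 to 0.107 for Ces2g, and the WT sex values from -0.0711 to 0.0675 for Ces1e, -0.0457 to 0.0443 for Ces2a, -0.0961 to 0.0571 for Ces2e and -0.157 to 0.239 for Sirt6.

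With the replicate block the members passing were 6 in males, 0 in females, 4 between WT sexes and 3 for the sex difference of the effect, as without it. Deviations of same-numbered WT and SIRT6-tg libraries correlated at -0.118 to 0.229 in males and -0.283 to 0.271 in females. For libraries of different numbers the values ran from -0.393 to 0.441 in males and from -0.355 to 0.375 in females. With such a spread these values cannot show whether the numbers pair littermates, which the labels do not state. The sex difference of the effect was not run with each comparison fitted alone.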
